A study of Mus musculus with 6 samples.

Results

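Transcripts of 9 mouse genes were followed in liver. They encode the enzymes that carry pyruvate, alanine and aspartate carbon to phosphoenolpyruvate and the membrane-bound transcription factor CREBH. The genes were chosen by symbol: Pck1, Pck2, Pcx, Got1, Got2, Gpt, Gpt2, Mdh1 and Creb3l3. All 9 were found among 10940 named genes of the RPKM table, that is, reads scaled for the length of the transcript and the size of the library. They held 10 of its 14659 transcripts, and a gene with several transcripts was represented by the transcript with the highest mean.

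Livers came from male C57BL/6J mice, an inbred strain, aged 8 weeks and with no transgene or deletion named, in 6 libraries. The fasted group, libraries 1, 3 and 4, went without food for 12 h from 10 pm. The refed group, libraries 5, 7 and 8, was without food for 12 h from 10 am and then, starting at 10 pm, had 12 h on a high sucrose diet (69% sucrose, 10% fat). Tissue of both groups was collected at 10 am, so the groups differ in the length of time since food and in the clock hours of the fast. They also differ in the high sucrose diet, which is given for the refed group only. These differences cannot be told apart here. Nothing in the labels says outright that every library comes from its own mouse, and p-values then measure only how far these samples spread, which may be technical.

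Gluconeogenesis from pyruvate begins in mitochondria, where pyruvate carboxylase makes oxaloacetate. Oxaloacetate leaves as malate or aspartate, is formed again in the cytosol by malate dehydrogenase or aspartate aminotransferase, and is turned to phosphoenolpyruvate by PEP carboxykinase. Alanine aminotransferase brings alanine in as pyruvate. PEP carboxykinase, malate dehydrogenase and both aminotransferases exist as a cytosolic and a mitochondrial enzyme from separate genes. In rodent liver the cytosolic PEP carboxykinase is known to be induced by glucagon through cyclic AMP and repressed by insulin. CREBH, the product of Creb3l3, is anchored in the endoplasmic reticulum of hepatocytes and is released by proteases of the Golgi.

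The promoters of the 2 PEP carboxykinase genes are shown because the cytosolic gene had the lowest log2 fold change of all genes tested and the mitochondrial gene did not pass the test. Each line gives the 150 bases before the RefSeq start in GRCm38.p6, read 5′ to 3′ on the gene's own strand, with matches to the searched motifs in capitals. The Pck1 stretch lies at chr2:173152923-173153072 on the plus strand and the Pck2 stretch at chr14:55540116-55540265 on the plus strand.
Pck1: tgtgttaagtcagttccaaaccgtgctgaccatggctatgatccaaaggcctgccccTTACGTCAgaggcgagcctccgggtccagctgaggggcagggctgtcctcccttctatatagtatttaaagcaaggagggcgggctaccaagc
Pck2: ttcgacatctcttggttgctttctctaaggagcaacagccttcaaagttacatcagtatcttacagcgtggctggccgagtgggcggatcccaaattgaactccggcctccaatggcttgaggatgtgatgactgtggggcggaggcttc

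The motifs searched on both strands were the palindromic cyclic AMP response element TGACGTCA, its variant TTACGTCA and the shorter TGACG, whose reverse complement lies inside the variant. The search covered the 250 bases before each start, and 8 of the 9 genes had a window, Gpt being the gene with none. TTACGTCA was found in the Pck1 window, at positions -93 to -86 counted from the start, and in 0.447% of 32851 mouse windows of that length. TGACGTCA was found in none of the members' 10 windows and in 1.55% of all windows. TGACG was found in Pck1, at the same site, and in Creb3l3, at positions -239 to -235 of its first window, and in 17.8% of all windows. A match describes letters and not binding.

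In refed liver 5 of the 9 genes fell, Pck1, Got1, Gpt, Gpt2 and Creb3l3. Mdh1 was higher in the main scaling, and Pck2, Pcx and Got2 did not pass. Calls are from limma, a linear model across all genes, on log2(RPKM + 1) with a Benjamini-Hochberg adjusted p under 0.05, and all 9 genes passed the filter of a mean of 0.5 RPKM. Of 10883 genes tested, 42.2% were called, 15.8% lower and 26.4% higher, so 6 of 9 called genes stand beside a high background. With libraries centred on their medians the share of calls on the higher side went from 62.6% to 49.2%. The median log2 fold change was -0.71 over the 9 genes and 0.10 over all genes tested. In whole tissue fewer cells of a type and less RNA per cell cannot be told apart. Fasted and refed values did not overlap for 7 of the 9 genes, as for 55.4% of all genes tested. Of 4 cytosolic enzymes 3 were lower and 1, Mdh1, was higher in the main scaling alone, and of 4 mitochondrial enzymes 1 was lower and 3 did not pass, a difference between sets of 4 genes that was not tested.

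**Figure D1:**
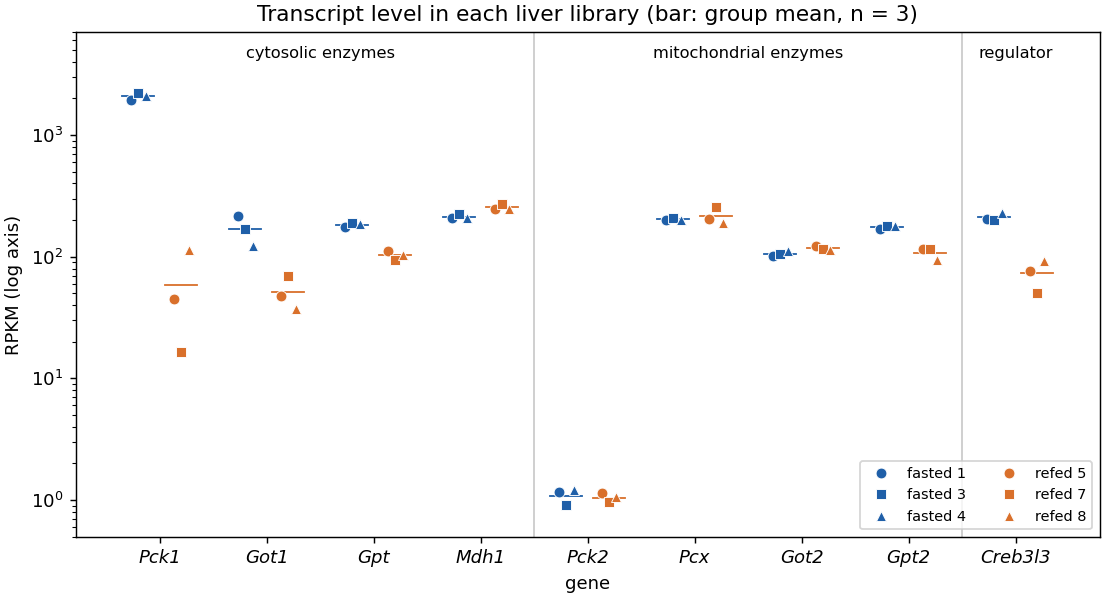
Transcript level in RPKM on a log axis for each of the 9 genes in the 3 fasted (blue) and 3 refed (orange) libraries, with a bar at each group mean. Pck1 drops from 1926 to 2229 RPKM in fasted libraries to 16.6 to 114 in refed ones, and Pck2 stays near 1 RPKM in all 6.

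Pck1 encodes the cytosolic PEP carboxykinase, which turns oxaloacetate into phosphoenolpyruvate. Its level was 1926, 2229 and 2098 RPKM in fasted 1, 3 and 4. In refed 5, 7 and 8 it was 45.3, 16.6 and 114 RPKM. Every refed library lay below every fasted one, and the refed libraries differed from each other far more than the fasted ones, with a coefficient of variation of 85.2% against 7.29%. The group means were 2084 ± 152 and 58.6 ± 49.9 RPKM (SD, n = 3), a 35.6-fold fall with a log2 fold change of -5.52 ± 0.56 (SE, limma adjusted p = 0.00025). The estimate was -4.84 without refed 7 and -6.19 without refed 8, each past the threshold. By mean level Pck1 was number 30 of the named genes in fasted liver and number 1032 in refed liver.

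For Pck1 the authors' deposited table has 287802, 340556 and 302968 reads in fasted 1, 3 and 4 and 6952, 3071 and 16752 in refed 5, 7 and 8. Even the lowest refed value thus rests on 3071 reads. That table gives a log2 fold change of -5.26 for Pck1 at a false discovery rate of 3.9e-12. It places the gene on chromosome 2 from 172978549 to 172984774 on the plus strand in mm9, the build named in the submitters' processing notes, an interval that holds exons and introns.

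Pck2 encodes the mitochondrial PEP carboxykinase. It was near 1 RPKM in every library, at 1.16, 0.918 and 1.2 in fasted 1, 3 and 4 and at 1.14, 0.969 and 1.06 in refed 5, 7 and 8. The groups overlapped. The log2 fold change was -0.03 with a 95% confidence interval of -0.27 to 0.22 (limma adjusted p = 0.87), on a scale where adding 1 understates changes of a gene this low. Within a library the fasted level of Pck1 was 1659 to 2427 times that of Pck2, and the refed level 17.2 to 108 times. Refed 7 was at the low end and refed 8 at the high end of that refed range.

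Got1 encodes the cytosolic aspartate aminotransferase, which makes oxaloacetate from aspartate and serves the malate-aspartate shuttle. Its level was 216, 170 and 123 RPKM in fasted 1, 3 and 4 and 47.4, 69.2 and 37.1 in refed 5, 7 and 8. The groups did not overlap although both were spread, with coefficients of variation of 27.4% and 32.0%. Got1 fell 3.32-fold (log2 fold change -1.72 ± 0.26 SE, limma adjusted p = 0.0015). The refed library with the lowest Pck1, refed 7, had the highest refed Got1, and refed 8, highest in Pck1, had the lowest Got1. In the authors' deposited table Got1 has 14624 to 27454 reads in fasted and 4750 to 11010 in refed libraries and a log2 fold change of -1.83.

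Got2 encodes the mitochondrial aspartate aminotransferase, the partner of Got1 in the shuttle. It was at 101, 106 and 112 RPKM in fasted 1, 3 and 4 and at 122, 116 and 113 in refed 5, 7 and 8. The refed values were all above the fasted ones by a small margin. The log2 fold change of 0.14 ± 0.08 (SE, 95% confidence interval -0.05 to 0.32) did not pass (limma adjusted p = 0.21).

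Gpt and Gpt2 encode the cytosolic and the mitochondrial alanine aminotransferase, which interconvert alanine and pyruvate. Gpt was at 175, 190 and 186 RPKM in fasted 1, 3 and 4 and at 112, 94.6 and 103 in refed 5, 7 and 8. Gpt2 was at 169, 179 and 180 RPKM in fasted 1, 3 and 4 and at 115, 115 and 93.6 in refed 5, 7 and 8. In both genes the groups were apart and replicates were close, with coefficients of variation from 3.63% to 11.3%. Gpt fell 1.79-fold (log2 fold change -0.83 ± 0.09 SE, limma adjusted p = 0.00034) and Gpt2 1.64-fold (-0.71 ± 0.10, adjusted p = 0.0013). The summed level of the pair went from 360 ± 14.1 to 211 ± 15.0 RPKM (SD, n = 3).

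Pcx encodes pyruvate carboxylase, the mitochondrial enzyme that supplies oxaloacetate for glucose synthesis and also for the citric acid cycle. It was at 201, 208 and 201 RPKM in fasted 1, 3 and 4 and at 204, 258 and 191 in refed 5, 7 and 8. The groups overlapped, refed 8 being the lowest and refed 7 the highest library of all 6. The log2 fold change was 0.09 ± 0.12 (SE, 95% confidence interval -0.19 to 0.36, limma adjusted p = 0.6), and it was -0.04 without refed 7. A second Pcx transcript in the table gave nearly the same values, 190 to 260 RPKM over the 6 libraries. These 2 transcripts cannot be counted as separate evidence, since they can share reads.

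Mdh1 encodes the cytosolic malate dehydrogenase, which interconverts malate and oxaloacetate. It was at 209, 224 and 208 RPKM in fasted 1, 3 and 4 and at 246, 269 and 247 in refed 5, 7 and 8. The groups did not overlap, and the rise was small at 1.19-fold (log2 fold change 0.25 ± 0.08 SE, limma adjusted p = 0.044). The call was lost in all 3 other scalings, with libraries centred (adjusted p = 0.17), quantile normalized (0.089) or scaled to the upper quartile (0.2), and whichever library was left out (0.067 to 0.12). Mdh2, the mitochondrial malate dehydrogenase, rose 1.23-fold from 152, 164 and 171 to 205, 197 and 197 RPKM (0.30 ± 0.08, adjusted p = 0.022). It did not pass when libraries were centred (adjusted p = 0.056) or scaled to the upper quartile (0.06), nor without fasted 3 (0.055), refed 5 (0.084) or refed 8 (0.054).

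**Figure D2:**
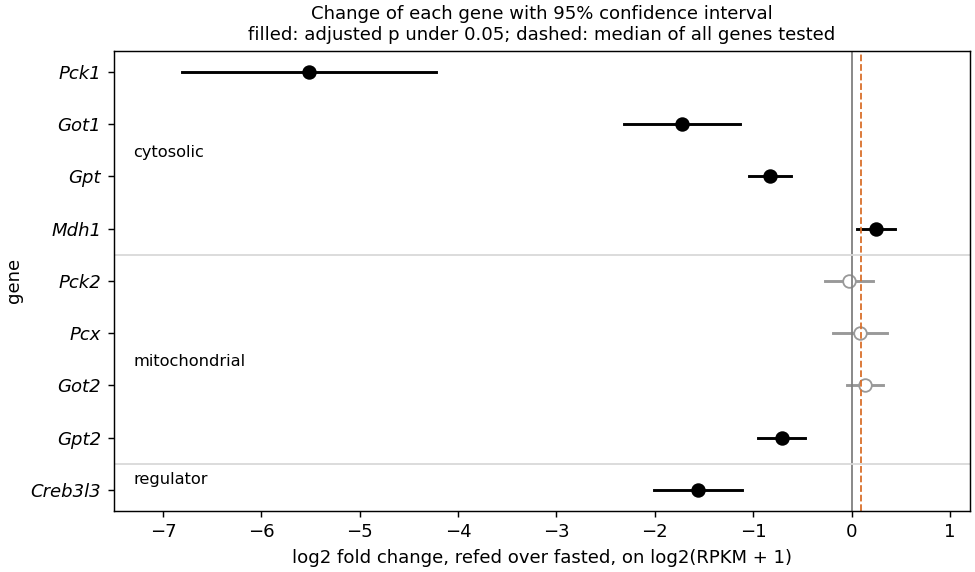
Log2 fold change of refed over fasted liver with its 95% confidence interval for each of the 9 genes, filled where the limma adjusted p was under 0.05, with the median of all genes tested as a dashed line. The cytosolic Pck1, Got1 and Gpt lie at -5.52, -1.72 and -0.83, and the mitochondrial Pck2, Pcx and Got2 lie between -0.03 and 0.14 with intervals that span 0. On each side 1 gene differs from these, the cytosolic Mdh1 at 0.25 and the mitochondrial Gpt2 at -0.71.

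Creb3l3 encodes CREBH, a transcription factor enriched in liver that is cleaved out of the membrane before it enters the nucleus. It was at 206, 201 and 227 RPKM in fasted 1, 3 and 4 and at 76.6, 50.6 and 92.1 in refed 5, 7 and 8. The groups were apart, and refed 7 was again the lowest and refed 8 the highest of the refed libraries, as for Pck1. Creb3l3 fell 2.89-fold (log2 fold change -1.56 ± 0.20 SE, limma adjusted p = 0.00069). The authors' deposited table lists 28143 to 30464 reads in fasted and 7793 to 12280 in refed libraries and a log2 fold change of -1.70.

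The authors' deposited table also holds Gpt and Gpt2, with log2 fold changes of -0.97 and -0.88, so that it lists all 5 members that fell. Its rows, limited to genes that the authors called, do not include the other 4 members, Pck2, Pcx, Got2 and Mdh1. Mdh1 and Mdh2, both called higher in the main fit here, thus have no row there. The 4 members without a row have RPKM values without a read count here.

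The order of the levels changed between the groups. In fasted liver Pck1 stood alone at the top, about 10 times above Pcx (9.59 to 10.7 times within a library). Mdh1, Creb3l3 and Pcx followed with means of 213, 211 and 203 RPKM, and neighbours among these 3 overlapped. Gpt, Gpt2 and Got1 came next, at 184, 176 and 170 RPKM, again with overlapping neighbours, and Got2 at 106 and Pck2 at 1.09 RPKM each lay below every value of the gene above. In refed liver Mdh1 and Pcx led at 254 and 217 RPKM and overlapped. Got2, Gpt2 and Gpt, at 117, 108 and 103 RPKM, overlapped as neighbours, as did Creb3l3, Pck1 and Got1, at 73.1, 58.6 and 51.2 RPKM. The Pck1 level was 0.0646 to 0.597 of the Pcx level in refed libraries.

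Cytosolic and mitochondrial enzymes of the same reaction were compared as the ratio of their RPKM values within each library, which does not depend on library scaling. For PEP carboxykinase the log2 ratio of Pck1 over Pck2 was 10.70, 11.24 and 10.77 in fasted 1, 3 and 4 and 5.32, 4.10 and 6.75 in refed 5, 7 and 8. The groups did not overlap, and the mean fell by 5.51 ± 0.78 (SE). The difference was -4.87 without refed 7 and -6.19 without refed 8. For aspartate aminotransferase the log2 ratio of Got1 over Got2 was 1.09, 0.68 and 0.14 in fasted 1, 3 and 4 and -1.36, -0.75 and -1.61 in refed 5, 7 and 8. Got1 exceeded Got2 in every fasted library and was below it in every refed library, a mean difference of -1.88 ± 0.37 (SE). The share of Got1 in the summed level of both genes went from 60.7% ± 7.86 to 30.0% ± 6.49 (SD, n = 3), and the sum itself from 276 ± 41.5 to 168 ± 17.8 RPKM.

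For alanine aminotransferase the log2 ratio of Gpt over Gpt2 was 0.05, 0.09 and 0.05 in fasted 1, 3 and 4 and -0.04, -0.28 and 0.13 in refed 5, 7 and 8. The groups overlapped, with a difference of -0.12 ± 0.12 (SE), and leaving out a library gave -0.22 to -0.01. Two-sided exact permutation tests over the 6 libraries gave p = 0.1 for PEP carboxykinase and for aspartate aminotransferase and p = 0.4 for alanine aminotransferase. The smallest p that 3 against 3 libraries allow is 0.1, so none of the 3 ratios could pass 0.05, and adjusted over the 3 pairs the exact test gave p = 0.15, 0.15 and 0.4. Malate dehydrogenase, whose mitochondrial gene Mdh2 is not a member, was compared in the same way outside these 3 pairs. The log2 ratio of Mdh1 over Mdh2 differed by -0.05 ± 0.08 (SE) with overlapping groups (exact permutation p = 0.6).

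**Figure D3:**
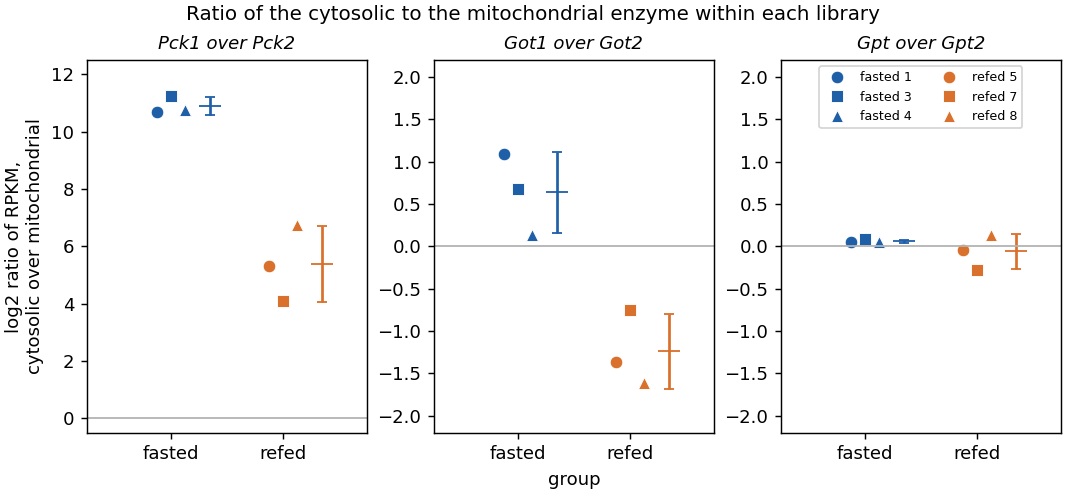
Log2 ratio of the cytosolic over the mitochondrial enzyme within each library for 3 reactions, with group mean and SD beside the points. The first panel has its own, wider axis. The Pck1 over Pck2 and Got1 over Got2 ratios of fasted and refed libraries do not overlap, whereas those of Gpt over Gpt2 lie between -0.28 and 0.13 in all 6 libraries.

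The steps that follow PEP carboxykinase towards glucose went the other way. Beside 26.4% of all genes tested called higher and 15.8% lower, 9 of 10 genes of the sugar phosphate steps rose and none fell. Their median log2 fold change was 0.83 against 0.10 for all genes tested. Most of these enzymes work in both directions and also serve glycolysis. Gpi1, glucose-6-phosphate isomerase, rose 6.61-fold, the enolase gene Eno1 2.24-fold and Gapdh, glyceraldehyde-3-phosphate dehydrogenase, 2.1-fold. G6pc, which encodes the glucose-6-phosphatase enzyme of glucose release, was at 134, 212 and 161 RPKM in fasted 1, 3 and 4 and at 449, 659 and 419 in refed 5, 7 and 8. Pck1 and G6pc thus changed in opposite directions, with no overlap of the groups in either. Slc37a4, its transporter partner, rose 1.52-fold. Fbp1, fructose-1,6-bisphosphatase, named after its value was seen as the gene of the list that did not pass, had a log2 fold change of -0.20 ± 0.09 (limma adjusted p = 0.1). It was called lower with libraries centred (-0.29, adjusted p = 0.038) or scaled to the upper quartile (-0.30, adjusted p = 0.032).

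Around pyruvate, 7 of 11 genes measured of 13 listed rose and 2 fell (median 0.38). Over all genes tested 26.4% were called higher and 15.8% lower. Pklr, the liver pyruvate kinase that runs from phosphoenolpyruvate to pyruvate, rose from 27.4, 31.3 and 36.0 to 705, 831 and 504 RPKM, 21.5-fold, at the step where Pck1 lies on the opposite route. Me1, the cytosolic malic enzyme, rose 10.8-fold, Pdhb, a pyruvate dehydrogenase subunit, 4.06-fold and Pdk1, a pyruvate dehydrogenase kinase, 2.31-fold. Smaller rises were those of Pkm, at 1.52-fold and below 4 RPKM, and Pdha1, at 1.31-fold. Ldha, a lactate dehydrogenase subunit, fell by 0.83 ± 0.15 (SE, limma adjusted p = 0.0038) and Pdk2, another kinase of pyruvate dehydrogenase, by 0.47 ± 0.13 (adjusted p = 0.019). Without fasted 1, fasted 3, refed 5 or refed 8 Pdk2 lost its call (adjusted p = 0.052 to 0.073), which left 1 lower gene.

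Of 8 mitochondrial carriers measured of 9 listed, 4 fell, 1 rose and 3 did not pass (median -0.37). Among all genes tested 15.8% were called lower and 26.4% higher. Slc25a22, a glutamate carrier, fell from 162, 171 and 150 to 48.0, 50.4 and 47.3 RPKM, 3.32-fold (log2 fold change -1.71 ± 0.08 SE, limma adjusted p = 1.1e-05). Slc25a13, the aspartate-glutamate carrier of the malate-aspartate shuttle, fell 2.01-fold, the dicarboxylate carrier gene Slc25a10 1.58-fold and Mpc1, a subunit of the pyruvate carrier, 1.3-fold. Slc25a1, the citrate carrier, rose 2.07-fold. Slc25a12 and Mpc2 had log2 fold changes of -0.36 and -0.26 and did not pass (adjusted p = 0.051 and 0.075), but both did in each of the 3 other scalings, which gave 6 lower carriers.

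Of 15 other transaminases and glutamate enzymes measured of 16 listed, 8 fell, 3 rose and 4 did not pass (median -0.64). The shares called over all genes tested were 15.8% lower and 26.4% higher. Sds, serine dehydratase, which makes pyruvate from serine, fell 9.36-fold from 200, 229 and 216 to 20.3, 28.2 and 20.3 RPKM. Oat, ornithine aminotransferase, fell 4.49-fold, Tat, tyrosine aminotransferase, 4.22-fold, Agxt, alanine-glyoxylate aminotransferase, 3.07-fold, Bcat2, a branched-chain aminotransferase, 2.61-fold and the glutaminase gene Gls2 2.55-fold. The cytosolic Got1 and Gpt thus fell by less than Oat and Tat in fold terms, a comparison that was not tested. Psat1, phosphoserine aminotransferase, rose from 0.317 RPKM or less to 0.763 to 1.07 RPKM. Only transcripts that reach 1 RPKM in some library are listed, and Psat1 did so in refed libraries only. It was thus selected through the group where it is high, and its call is no separate evidence of a rise. Gfpt1, the amidotransferase of hexosamine synthesis, and Glul, glutamine synthetase, rose 1.4-fold and 1.28-fold. Both lost their calls with libraries centred or scaled to the upper quartile and without refed 5 or refed 8, which left 1 higher gene, and the groups of Gfpt1 overlapped. Gfpt1 lost its call also when quantile normalized, with no variance trend, with transcripts summed and without any library but refed 7.

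**Figure D4:**
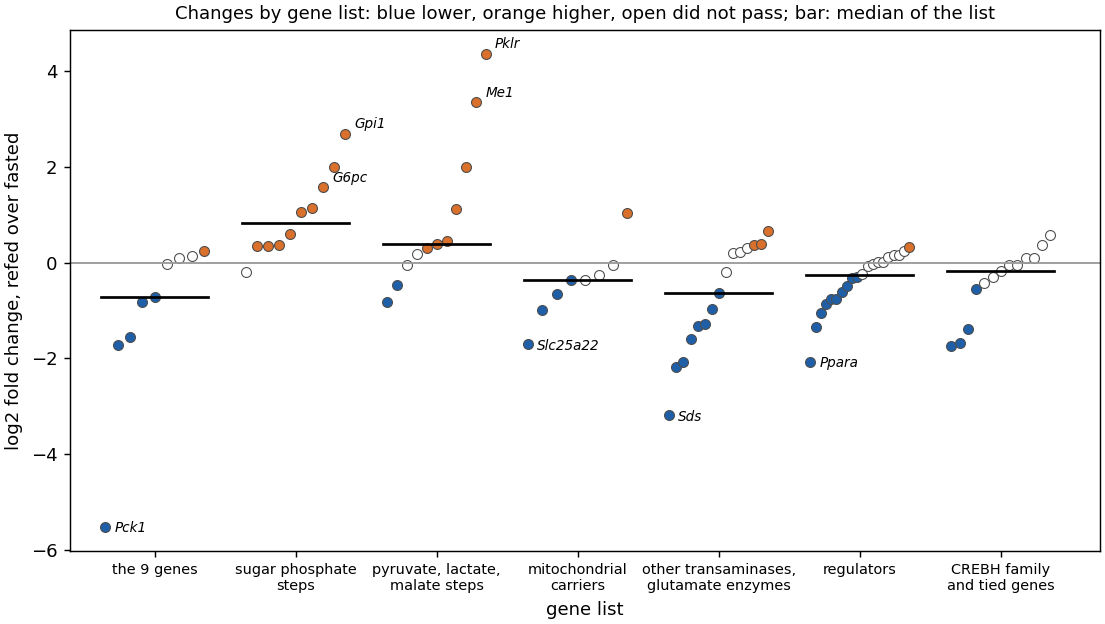
Log2 fold change of refed over fasted liver for the 9 genes and for each gene tested in 6 lists of neighbouring steps and regulators, coloured blue where lower, orange where higher and open where the limma adjusted p was 0.05 or more, with a bar at the median of each list. The medians are -0.71 for the 9 genes, 0.83 for sugar phosphate steps and -0.64 for other transaminases and glutamate enzymes.

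Among regulators of gluconeogenic genes, of 20 measured of 21 listed, 10 fell, 1 rose and 9 did not pass (median -0.26), beside 15.8% of all genes tested called lower and 26.4% higher, and 7 or 8 were lower when a library was left out. Ppara, the nuclear receptor of fasting metabolism, fell 4.4-fold, Ppargc1b, a coactivator, 2.96-fold and Klf15, a transcription factor of amino acid use, 2.58-fold. Ppargc1a, the coactivator PGC-1alpha, fell 2.62-fold from 2.68, 1.84 and 1.69 to 1.09, 0.717 and 0.562 RPKM. On the log2(RPKM + 1) scale, where adding 1 understates changes of a gene this low, the fall was 0.77 ± 0.16 (SE, limma adjusted p = 0.0066). Crtc2, the CREB coactivator of the glucagon response, fell 1.91-fold and the transcription factor gene Foxo1 1.8-fold. Kat2a, an acetyltransferase that acts on PGC-1alpha, rose 1.28-fold (adjusted p = 0.025) and lost its call in all 3 other scalings and without fasted 1, fasted 4, refed 5 or refed 8, which left no higher gene.

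Genes of the CREBH family, its processing and genes tied to it in mouse liver were measured for 13 of 14 listed, and 4 fell, none rose and 9 did not pass (median -0.18). The 4 calls, all lower, stand beside 15.8% of all genes tested called lower and 26.4% called higher. In either direction fewer than 42.2% of the list, the share of all genes tested, were called in the main fit. The 4 became 6 in each of the 3 other scalings, in which Creb3, a relative of Creb3l3, and Atf6, another membrane-bound factor, were also called lower (adjusted p = 0.038 to 0.045). Apoa5, an apolipoprotein of triglyceride clearance, fell 2.55-fold, Cidec, a lipid droplet protein gene, 4.86-fold and Crp, C-reactive protein, 1.48-fold. Hamp, the hepcidin gene, was at 328, 199 and 430 RPKM in fasted 1, 3 and 4 and at 97.1, 38.5 and 224 in refed 5, 7 and 8. Its groups overlapped, its call (limma adjusted p = 0.045) was lost without any library but refed 8 (adjusted p = 0.05 to 0.13) and with robust moderation (0.12), and its reads can be shared with its close copy Hamp2. Apoa4 and Fgf21 did not pass, at log2 fold changes of 0.58 ± 0.46 and -0.43 ± 0.40. Apoa4 was higher without fasted 4 (1.18, adjusted p = 0.0078), and without fasted 1 Fgf21 was lower (-0.94, adjusted p = 0.013). The count of higher genes rose from 0 to 2 without fasted 1 and to 1 without fasted 4. The 2 without fasted 1, named after their values were seen, were Creb3l1, a relative of Creb3l3 near or below 1 RPKM, and Apcs, serum amyloid P, which was at 231 RPKM in fasted 1 against 30.3 and 32.1 in fasted 3 and 4. Creb3l1 reached 1 RPKM, the least needed to be listed, in refed 5 only (1.17 RPKM). It was thus selected through the group where it is high.

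The genes whose profile over the 6 libraries was closest to that of Pck1, by the root mean square difference of centred log2(RPKM + 1) values, included Mfsd2a at 0.89 and Dbp at 1.03. Mfsd2a, a lysophospholipid transporter gene, was at 41.5, 62.7 and 109 RPKM in fasted 1, 3 and 4 and at 1.22, 1.73 and 3.4 in refed 5, 7 and 8. These distances are near or above 1 log2 unit. They count the size of a change as well as its pattern, and Pck1 had the lowest log2 fold change of all genes tested. The distances thus do not say whether another gene followed Pck1 from library to library. Dbp encodes a circadian transcription factor. For Creb3l3 the closest were Oplah, a gene of glutathione turnover, at 0.09, the clock gene Per1 at 0.09 and Apoa5 at 0.10. Apoa5 was at 507, 452 and 542 RPKM in fasted 1, 3 and 4 and at 215, 130 and 244 in refed 5, 7 and 8. Its lowest value was in refed 7 and its highest refed value in refed 8, as in Creb3l3. These genes were picked by their likeness over the same 6 libraries, so a shared order follows from the choice and is no separate evidence.

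The 6 hepatocyte markers were all in the table, with summed levels of 42391 to 50559 RPKM in fasted and 43545 to 46598 in refed libraries, most of it from Alb, and 2 of them, Hnf4a and Cps1, were called lower (log2 fold change -0.32 and -0.73). PEP carboxykinase and the aminotransferases differ along the liver lobule, so zonal markers are given. The 6 periportal markers summed to 2554 to 2844 RPKM in fasted and 2017 to 2330 in refed libraries, with 4 called lower. The 6 pericentral markers summed to 5890 to 6698 and 2276 to 2807 RPKM, most of it from Cyp2e1, with 5 called lower and Glul higher. Of these Lgr5, called lower, reached 1 RPKM in fasted libraries only and is listed through them. The calls of all marker sets stand beside 15.8% of all genes tested called lower and 26.4% called higher. Oat and Glul of the pericentral set and Gls2 of the periportal set also belong to the transaminase and glutamate list. The periportal and pericentral sums thus moved with the fall of Pck1, Got1, Gpt, Gpt2 and Creb3l3, and their part in it was not tested. Markers of Kupffer cells summed to 24.2 to 72.9 RPKM in fasted and 37.4 to 40.4 in refed libraries, with fasted 1 the highest, and none of 6 was called. Of 5 cholangiocyte markers 3 were called higher, Krt19, Krt7 and Sox9, each at 3.23 RPKM or less, and so were the stellate cell marker Des and the kidney marker Slc5a2, at 2.83 and 3.57 RPKM or less. Krt19 and Krt7 reached 1 RPKM, the least needed to be listed, in refed libraries only. These 2 were thus selected through the group where they are high. The part of all these markers in the changes of the 9 genes was not tested either. No lymphocyte marker of 5 was in the table, and of 4 adipocyte markers only Cfd was, at 1.21 RPKM or less. The reads of the genes in the authors' deposited table ranged from a sum of 26237934 (refed 8) to 33219013 (refed 7), a part of each library, so that full depth is unknown.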

How the data were processed

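Messenger RNA libraries were made from total RNA of frozen liver, per the labels' protocols. The deposited table of RPKM values has 1 row per RefSeq transcript, and every row reaches at least 1 RPKM in some library, tested on its values. The sources used here do not give the library total behind the scaling. A second deposited table holds raw read counts, p-values after correction and log2 fold changes from DESeq for 5434 rows that the authors called, per the file headers. Being selected on the outcome, these counts got no count test. The unadjusted p-values of the RPKM table, deposited by the authors, were not used. The submitters' processing notes name mm9, STAR 2.6.0c, FastQC and DESeq2 and give no roles. The sources used here do not say if counting used strand, so overlapping genes are uncertain.

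Transcripts were named by RefSeq accession (14390), description (172) or symbol column (23) through a reference table of GRCm38.p6, and 74 without a name were left out. Genes averaging 0.5 RPKM or more were fitted with limma 3.58.1 in R 4.3.3 on log2(RPKM + 1), with trended variances and two-sided tests. A plain fold change divides one group's mean RPKM by the other's. The fit was tested on simulated data with 200 genes changed, far fewer than were called here, and independent values without library-wide shifts. That test does not cover a dependence on scaling. Chi-square per degree of freedom of counts between replicates was 59.1 to 240, so no library repeated another. Ratios within libraries were tested by exact permutation with scipy 1.17.1. Promoters are RefSeq windows of GRCm38.p6. Genes named from a list are those called in the rarer direction, up to 6 others by size of change, and Mdh2, G6pc and Ppargc1a; a few genes that this rule names are not reported here. Members and lists were chosen with earlier results of these data known.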

Additional observations from a re-analysis of the deposited data

How the results depend on the processing

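The 5 lower calls among the 9 genes held under all 17 alternatives to the main fit, which changed the pseudocount (0.1 or 0.5), the filter, the scaling, the variance model, the choice of transcript, the naming or left out a library. Of 152 refits of single members 138 kept direction and side of the threshold and 9, all of Mdh1, lost the call. The count of higher members was 0 with libraries centred, quantile normalized or scaled to the upper quartile, and 0 whichever library was left out. The uncalled log2 fold changes of Pck2 and Pcx changed sign, Pck2 to 0.01 without fasted 4 and 0.005 without refed 7 (-0.09 to 0.01 over the left-out libraries), and Pcx to -0.002 with libraries centred, -0.01 with the upper quartile and -0.04 without refed 7 (-0.04 to 0.17). Lower sugar phosphate genes numbered 1 with libraries centred or scaled to the upper quartile. Higher transaminase and glutamate genes numbered 1 with a filter at a mean of 5 RPKM, centred or upper quartile scaled, and 1 to 3 with a library left out. Higher regulators numbered 0 in the 3 scalings and 0 to 1 with a library left out, lower pyruvate genes 1 to 2, and higher genes of the CREBH list 0 to 2, with 1 where variances had no trend. Lower genes of the CREBH list numbered 6 in the 3 scalings against 4, and 3 with robust moderation. The causes were not tested, other than that fewer genes enter a stricter filter and fewer samples a fit without a library. No paired analysis was possible because the groups share no replicate numbers. Full depth is unknown, which limits statements on Pck2, near 1 RPKM with no read count listed.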
